A study of Mus musculus with 30 samples.

Results

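Collagens and laminins are the main structural proteins of the extracellular matrix, and their genes were followed here in the hippocampus of mice given methylmercury (MeHg) in the feed, with or without added selenium. The genes were taken from the table of normalized counts by name: every row whose Ensembl identifier carries a symbol of the form Col-number-a-number or Lam-a, b or c-number, with normalized counts summing to at least 300 over the 30 libraries. This gave 48 genes, 38 for collagen chains and 10 for laminin chains, of 21412 genes in the table. A further 6 genes matched by name and stayed below the sum: Lamb3 (288), Col9a1, Col6a4, Col4a6, Col17a1 and Col10a1 (57.4), while Col2a1 was the lowest gene kept (319).

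The mice were male BALB/c animals, and each library was made from the hippocampus of 1 mouse. Ctr, LD and HD mice were young and kept for 11 weeks on a purified rodent diet. Mice named Ctr received the feed without added MeHg, mice named LD received 0.28 mg MeHg per kg of feed and mice named HD received 5 mg MeHg per kg of feed. The groups Se_Ctr, Se_LD and Se_HD carry the same names with a selenium prefix, and the title of the series names selenium-methionine as the addition; the selenium level, the amount of MeHg, the age and the feeding time of these groups are not given in the sources used here. The series calls the mercury dose low or high in both sets of groups, and low dose and high dose are used below in that sense. There were 5 mice in each of the 6 groups, every mouse was a separate animal, and MeHg and selenium came with the feed, so no cell type was targeted. Reads of whole tissue were counted, so fewer cells of a type and less RNA per cell cannot be told apart in any result below.

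Collagens are trimers of chains that repeat a unit of 3 residues beginning with glycine, which lets the chains wind into a triple helix. Fibrillar collagens form the fibres of connective tissue, fibril-associated collagens sit on those fibres, network collagens such as collagen IV build basement membranes, beaded-filament collagens such as collagen VI lie around cells, and transmembrane collagens stay anchored in the cell surface. Laminins are trimers of an alpha, a beta and a gamma chain and start the assembly of basement membranes. In the brain these proteins are concentrated in the walls of blood vessels, the meninges and the choroid plexus, and little fibrillar collagen lies among the neurons and glia.

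Libraries held 5768208 to 11510521 reads on genes, and 0.0654% to 0.110% of them fell on the 48 genes. All 10 hippocampal excitatory neuron markers were present, with summed normalized counts of 15316 to 24284 per library. Choroid plexus markers differed widely between mice of every group: transthyretin (Ttr), the most abundant of them, ran from 96.3 to 34026 normalized counts. One library stood apart, HD library 21, which had the highest value of all 30 libraries for 11 of the 48 genes and the highest level of the astrocyte marker Gfap (32820.3 normalized counts, against 1430.0 to 1988 in Ctr mice). The values without it are therefore given beside the HD results it changes.

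The coding sequences show what separates the 2 families, and 30 codons are printed for the 3 collagen genes and the laminin gene that the results below return to. They come from the longest complete coding sequence of each gene in GENCODE M1 on the NCBIM37 build, 5′ to 3′ on the coding strand. In the collagens, capitals mark glycine codons, from the start of the longest run of triplets that each begin with one. In Lamb2, capitals mark cysteine codons in the stretch richest in them.
Col16a1: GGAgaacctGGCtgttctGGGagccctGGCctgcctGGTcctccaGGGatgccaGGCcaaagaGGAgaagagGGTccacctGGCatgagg
Col27a1: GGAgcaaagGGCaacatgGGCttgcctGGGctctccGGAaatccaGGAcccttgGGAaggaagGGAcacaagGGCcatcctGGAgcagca
Col25a1: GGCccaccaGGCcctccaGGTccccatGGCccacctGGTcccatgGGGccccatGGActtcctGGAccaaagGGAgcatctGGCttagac
Lamb2: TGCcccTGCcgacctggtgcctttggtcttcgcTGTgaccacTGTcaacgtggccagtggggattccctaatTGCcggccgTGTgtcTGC

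The Col16a1 stretch covers codons 1006 to 1035 of a gene at chr4:129725084-129776527 (plus strand), and the Col27a1 stretch covers codons 673 to 702 of a gene at chr4:62875038-62996025 (plus strand). The Col25a1 stretch covers codons 529 to 558 of a gene at chr3:129883809-130302795 (plus strand), and the Lamb2 stretch covers codons 851 to 880 of a gene at chr9:108382193-108392861 (plus strand). Over all 38 collagen genes the longest run of codon triplets that each begin with glycine was between 28 triplets in Col28a1 and 344 in Col3a1. Col16a1 had a longest run of 52 triplets and Col27a1 one of 217. None of the 10 laminin genes had a run above 3. Cysteine made up 2.59% to 6.98% of laminin codons and 0.269% to 2.14% of collagen codons.

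Of the 48 genes, 11 averaged 200 or more normalized counts over the 30 libraries, 20 averaged 50 to 200 and 17 averaged under 50. The highest means were those of Col25a1, a transmembrane collagen made by neurons (767), Col4a2 (702) and Col4a1 (528), the chains of the common collagen IV of vessel walls, and Col11a1 (554) and Col11a2 (362), chains of a fibrillar collagen best known from cartilage. Levels can be compared between genes only per length. Per kb of exon, Col4a2 came first with 106 normalized counts, followed by Col25a1 with 82.6, Col4a1 with 77.5, the beaded-filament gene Col6a1 with 60.2 and the fibril-associated gene Col9a3 with 58.3. The ranges over mice of these neighbours overlapped, so only the broad order is given. The laminin genes were led by Lamb2 (43.7), Lamc1 (36.8) and Lamb1 (30.7) per kb, and the highest alpha chain was Lama2 (13.4). The fibrillar genes that make up most connective tissue collagen were low: Col1a1 stood at 13.1, Col1a2 at 11.0 and Col3a1 at 5.85 per kb.

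**Figure D1:**
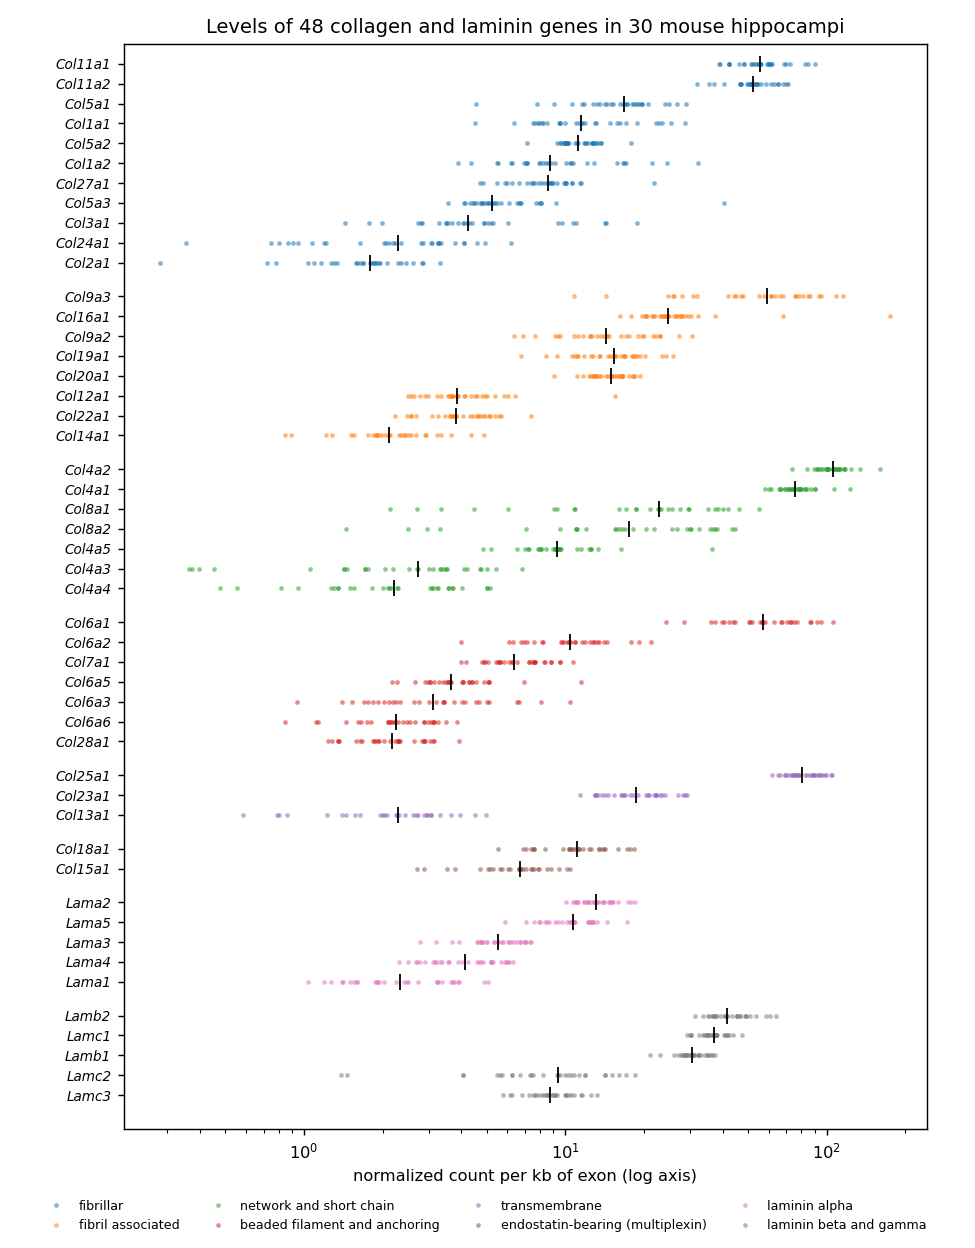
Normalized count per kb of exon (log axis) of each of the 48 genes, grouped by class, with 1 point per mouse (30 mice) and a bar at the median. Col4a2, Col25a1 and Col4a1 lie highest, and Col8a1, Col8a2, Col4a3 and Col4a4 spread widest among the network genes.

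Spread between mice differed greatly among the genes. The coefficient of variation within groups, averaged over the 6 groups, was lowest for Lamc1 (11.1%), Lama2 (12.0%), Lamb1 (12.1%), Col25a1 (12.4%) and Lamb2 (13.2%). It was highest for Col4a3 (61.2%), Col8a2 (60.4%), Col8a1 (59.1%), Col6a3 (56.5%) and Col4a4 (54.2%). Among the 26 genes that passed in none of the comparisons below, the lowest unadjusted p was 0.0513, for Col8a2. They include Col4a1 and Col4a2, whose log2 fold changes from Ctr to HD had 95% intervals of -0.35 to 0.32 and -0.34 to 0.24.

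The first comparison asked which of these genes differ at the high MeHg dose on the feed without selenium. At an unadjusted limma p below 0.05, 8 of 48 genes passed between HD and Ctr (6 up/2 down). The genes that were higher were Col16a1, Col27a1, Col9a3, Col5a3, Col4a5 and Lamb2, and those that were lower were Col24a1 and Col5a1. The share called over the table was 8.34% of all genes tested (5.08% higher, 3.26% lower), and the 8 of 48 genes are to be read against that share. After Benjamini-Hochberg adjustment over all genes limma called none of the 48, edgeR none and DESeq2 1 (Col16a1), while 26 genes of the table (0.130%) passed with limma; without adjustment edgeR and DESeq2 called 7 genes each. The median log2 fold change of the 48 genes was 0.0080, beside 0.0067 over all genes, and 24 genes lay on either side of 0. Without library 21 the count was 6 of 48, and it was 5 without Ctr library 1 or Ctr library 25 and 11 without Ctr library 7.

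Col16a1, which encodes a fibril-associated collagen that binds integrins, had the lowest p of the 48. Its normalized counts were 109, 133, 179.5, 187 and 199 in the 5 Ctr mice and 205, 218, 252, 462 and 1182 in the 5 HD mice. Every HD mouse was above every Ctr mouse, and 1 of them, library 21, was far above the rest. The log2 fold change was 1.19 ± 0.33 (SE; limma, unadjusted p = 0.00179, adjusted p = 0.185), a 2.28-fold difference of geometric means. The exact permutation test over 5 against 5 mice gave p = 0.00794, the smallest value that design allows. Without library 21 the log2 fold change was 0.76 (unadjusted p = 0.00184). Removing each of the 15 libraries in turn left it between 0.76 and 1.40, with every unadjusted limma p at or below 0.00657.

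Col27a1 encodes a fibrillar collagen of developing cartilage. Its counts were 61.3, 81.1, 95.9, 108 and 111 in Ctr and 102, 131, 131, 150.0 and 284 in HD mice, and 4 of 5 HD mice lay above the highest Ctr mouse. The log2 fold change was 0.74 ± 0.24 (limma, unadjusted p = 0.00531, adjusted p = 0.272), and 0.51 (unadjusted p = 0.0209) without library 21. Lamb2, the beta chain of laminins in mature vascular and synaptic basement membranes, read 177, 233, 262, 275 and 276 in Ctr and 230.3, 285, 301, 328 and 361 in HD mice. The groups overlapped through 1 HD mouse, and the log2 fold change was 0.30 ± 0.14 (limma, unadjusted p = 0.0399, adjusted p = 0.563). Lamb2 no longer passed in 5 of the 15 fits without 1 library: 0.19 (unadjusted p = 0.155) without Ctr library 25, 0.23 (unadjusted p = 0.122) without HD library 3, 0.27 (unadjusted p = 0.0866) without HD library 9, 0.29 (unadjusted p = 0.0674) without Ctr library 1 and 0.30 (unadjusted p = 0.0566) without library 21.

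The genes that were lower at the high dose are both fibrillar. Col5a1 encodes a chain of collagen V, which starts fibril formation and limits fibril width. It read 143, 166, 167, 226 and 246 in Ctr and 98.2, 121, 122, 129 and 137 in HD mice, and every HD mouse lay below every Ctr mouse. The log2 fold change was -0.62 ± 0.21 (limma, unadjusted p = 0.00772, adjusted p = 0.323; exact permutation p = 0.00794). Without library 21 it was -0.64 (unadjusted p = 0.00916). Mean Col5a1 was highest in Ctr mice, at 190 normalized counts. It was 134 in LD, 121 in HD, 122 in Se_Ctr, 148 in Se_LD and 127 in Se_HD mice. For Col5a1 and Col24a1 the comparison of Se_Ctr with Ctr below rests on the same Ctr mice. Col24a1, a fibrillar collagen gene expressed at low level, read 17.9, 24.8, 25.5, 35.0 and 37.4 in Ctr and 6.11, 7.23, 8.16, 16.1 and 21.7 in HD mice. Its log2 fold change was -1.28 ± 0.42 (limma, unadjusted p = 0.00592, adjusted p = 0.284), with 4 of 5 HD mice below the lowest Ctr mouse, and it was -1.20 (unadjusted p = 0.0132) without library 21.

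The 3 remaining genes, like Lamb2, depended on single libraries. Col5a3, a further collagen V chain, read 24.1, 29.3, 34.5, 36.1 and 37.4 in Ctr and 28.2, 34.9, 55.0, 62.7 and 277 in HD mice, and its log2 fold change of 0.95 ± 0.40 became 0.42 (unadjusted p = 0.0986) without library 21. Col4a5, a basement membrane chain, read 35.0, 43.9, 54.4, 61.4 and 62.4 in Ctr and 48.3, 54.1, 60.5, 109 and 245 in HD mice. Its log2 fold change of 0.74 ± 0.33 became 0.35 (unadjusted p = 0.176) without that library. Col9a3 read 99.2, 107, 123, 162 and 419 in Ctr and 212, 244, 256, 333 and 362 in HD mice, with overlap through Ctr library 7. Its log2 fold change was 0.83 ± 0.32 (limma, adjusted p = 0.445), which became 0.92 (unadjusted p = 0.0119) without library 21 and 0.67 (unadjusted p = 0.0581) without Ctr library 25. Col4a5 was also lost without Ctr library 1, Ctr library 25 or HD library 3, at 0.61 (unadjusted p = 0.0976), 0.69 (unadjusted p = 0.0728) and 0.64 (unadjusted p = 0.0887), and Col5a3 without Ctr library 1 at 0.85 (unadjusted p = 0.0584).

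Markers of other cell types also differed between these groups. All 9 microglia markers passed and were higher in HD mice (median log2 fold change 0.79), with summed normalized counts of 3223 to 7053 in HD and 2535 to 2777 in Ctr mice. Of 9 astrocyte markers, 5 passed and were higher (median 0.32), with sums of 56030 to 90860 in HD and 46289 to 56635 in Ctr mice. Of 12 choroid plexus markers, 2 passed (median 1.42), with overlapping sums of 9944 to 44858 in HD and 2375 to 43676 in Ctr mice; none of the 12 fibroblast markers did (median 0.12). Of 9 inhibitory neuron markers 2 passed as lower (median -0.23), with sums of 4571 to 5903 in HD and 5972 to 6856 in Ctr mice, 1 of 9 thalamus markers passed as higher, and all 5 erythrocyte markers lay below 0 (median -0.52, none passing). Without library 21, 9 microglia, 3 astrocyte and 1 choroid plexus markers passed. No marker of the microglia, astrocyte, choroid plexus and fibroblast lists was at 0 in all libraries. With the choroid plexus and fibroblast scores (mean log2 marker levels of each mouse) as covariates, chosen after seeing the data, the log2 fold changes were 1.27 (unadjusted p = 0.00189) for Col16a1, 0.69 (unadjusted p = 0.0154) for Col27a1 and -0.67 (unadjusted p = 0.0078) for Col5a1. The same fit gave 0.41 (unadjusted p = 0.0765) for Col9a3, 0.48 (unadjusted p = 0.136) for Col4a5 and 0.23 (unadjusted p = 0.0942) for Lamb2. The part of microglia, astrocytes, inhibitory neurons and erythrocytes in the differences was not tested.

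**Figure D2:**
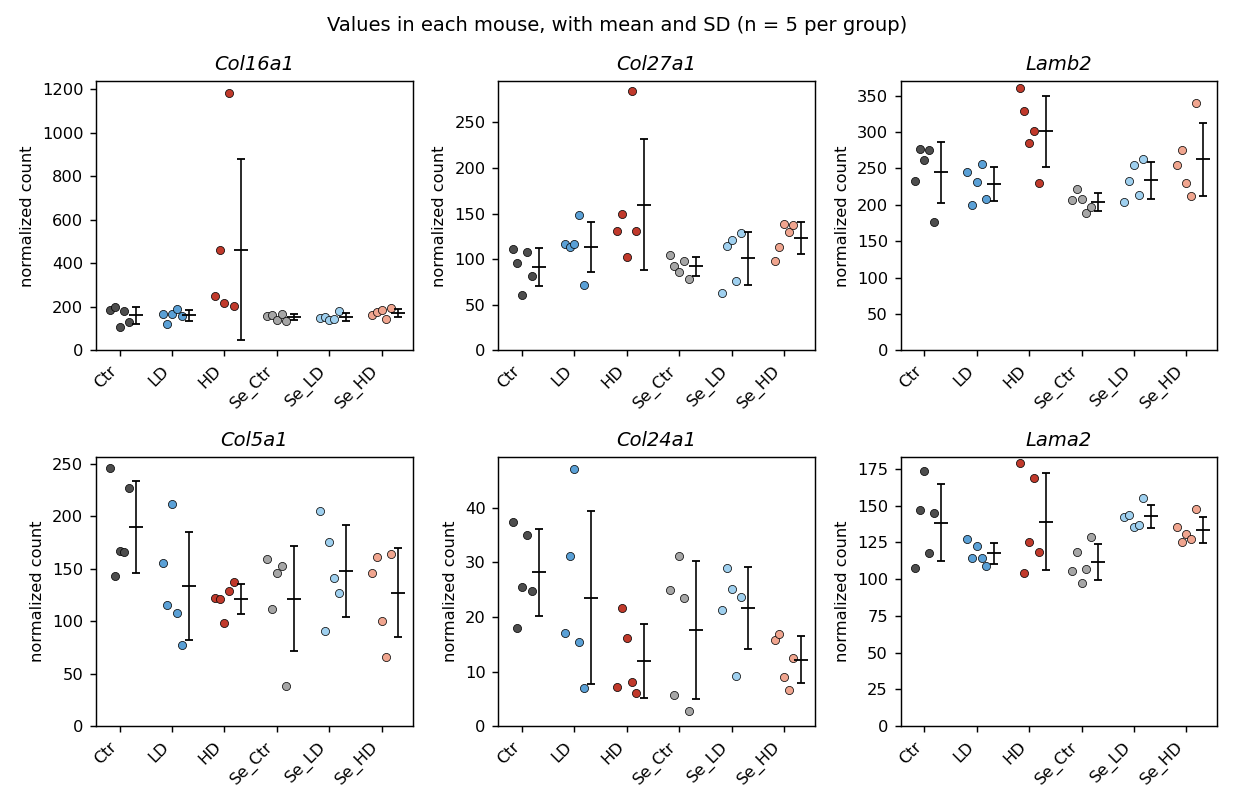
Normalized counts of 6 genes in each mouse (points; vertical axis from 0), by group, with the mean and SD of 5 mice beside the points. All 5 HD mice lie above the Ctr mice for Col16a1 and below them for Col5a1, and for Lama2 all 5 Se_LD mice lie above the Se_Ctr mice.

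The group named high dose was then compared with its own controls on the selenium feed. Between Se_HD and Se_Ctr, 7 of 48 genes passed (6 up/1 down), against 4.19% of all genes tested (2.43% higher, 1.76% lower). No gene of the whole table passed after adjustment with limma in this comparison, and edgeR and DESeq2 called none of the 48 after adjustment and 7 each without it. The genes that were higher were Col3a1, Col1a2, Col1a1, Col27a1, Lamb2 and Lama2, and Col22a1 was lower. The median log2 fold change of the 48 genes was 0.13, beside -0.0056 over all genes, and 33 of the 48 lay above 0. That median ran from 0.049 without Se_Ctr library 28 to 0.20 without Se_HD library 24. The members' median varied with an SD of 0.16 between single mice within groups, which is not the error of a difference between groups.

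Col3a1, Col1a1 and Col1a2 encode the chains of collagens I and III, the main fibrous collagens of connective tissue. Col3a1 read 23.4, 29.4, 29.8, 34.1 and 35.4 in Se_Ctr and 30.9, 36.8, 78.6, 92.2 and 119.5 in Se_HD mice, a log2 fold change of 1.04 ± 0.34 (limma, unadjusted p = 0.00636, adjusted p = 1). Col1a2 read 66.3, 84.4, 96.0, 96.9 and 107 in Se_Ctr and 75.6, 86.3, 201, 203 and 390.4 in Se_HD mice (0.84 ± 0.34; limma, adjusted p = 1). Col1a1 read 49.3, 50.4, 53.6, 65.4 and 72.2 and 51.8, 55.7, 104, 150.2 and 167 (0.71 ± 0.27; limma, adjusted p = 1). In each case 3 or 4 Se_HD mice were above all Se_Ctr mice and the others lay among them. Without Se_HD library 30, the mouse with the most Col1a2, 4 of the 48 genes passed in place of 7. Col1a2 was then 0.52 (unadjusted p = 0.0973), Col1a1 0.54 (unadjusted p = 0.0584) and Col3a1 0.81 (unadjusted p = 0.028). Col1a1 was also lost without Se_HD library 6, at 0.50 (unadjusted p = 0.0642), and Col1a2 without Se_Ctr library 28, Se_HD library 6 or Se_HD library 12, at 0.74 (unadjusted p = 0.0538), 0.75 (unadjusted p = 0.052) and 0.76 (unadjusted p = 0.0509). Fibroblast markers differed in the same direction: 8 of 12 passed and were higher in Se_HD mice (median log2 fold change 0.89), with sums of 5993 to 8516 against 2463 to 5243. All 12 choroid plexus markers lay above 0 (median 0.75, none passing), and 2 of 9 astrocyte, 1 of 10 endothelial and 1 of 10 pericyte markers passed as higher. With the marker scores as covariates the log2 fold changes became 0.20 (unadjusted p = 0.371) for Col3a1, 0.085 (unadjusted p = 0.654) for Col1a1 and -0.067 (unadjusted p = 0.613) for Col1a2.

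Col27a1 and Lamb2 passed in both diets. Col27a1 read 78.0, 86.4, 93.1, 98.5 and 105 in Se_Ctr and 97.7, 114, 130.3, 138 and 138 in Se_HD mice (0.41 ± 0.17; limma, adjusted p = 1). Lamb2 read 189, 197, 207, 208 and 221 in Se_Ctr and 212, 229.7, 255, 276 and 340.3 in Se_HD mice (0.34 ± 0.11; limma, adjusted p = 1). For both genes 4 of 5 Se_HD mice lay above all Se_Ctr mice. The marker scores as covariates left 0.29 (unadjusted p = 0.0221) for Col27a1 and 0.15 (unadjusted p = 0.162) for Lamb2. Lama2, the alpha chain of the laminin around muscle fibres and brain vessels, differed by 0.26 ± 0.094, and Col22a1, a collagen of tissue junctions, by -0.42 ± 0.19. Col27a1 was lost without Se_HD library 30, Se_HD library 18 or Se_Ctr library 28, at 0.37 (unadjusted p = 0.056), 0.37 (unadjusted p = 0.0556) and 0.35 (unadjusted p = 0.0602), and Col22a1 in 6 of 15 such fits, with values of -0.41 to -0.32. Lamb2, Lama2 and Col3a1 passed in all 15.

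**Figure D3:**
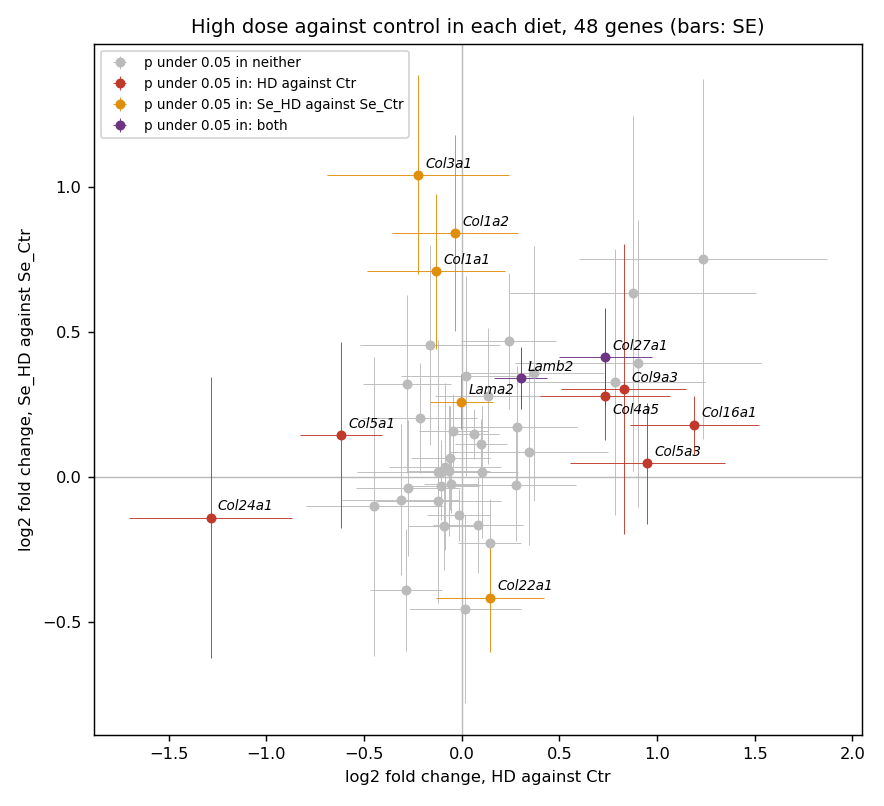
Log2 fold change of the 48 genes from Ctr to HD (horizontal) and from Se_Ctr to Se_HD (vertical), with SE bars; colours show where the unadjusted limma p was below 0.05. Col27a1 and Lamb2 passed on both axes, Col16a1 lies far right near 0 on the vertical axis, and Col3a1, Col1a2 and Col1a1 lie high near 0 on the horizontal axis.

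Whether the effect of the high dose itself differed between diets was tested as an interaction, in which 1 gene of 48 passed, against 4.77% of all genes tested (1.82% higher, 2.96% lower). That gene was Col16a1. On the selenium feed it read 136, 139, 156, 162 and 166 in Se_Ctr and 146, 162, 176, 185 and 195 in Se_HD mice, and those groups overlapped. The effect was smaller on the selenium feed, with an interaction of -1.01 ± 0.38 (log2; limma, unadjusted p = 0.0114, adjusted p = 0.91), which was -0.58 (unadjusted p = 0.022) without library 21. The interaction of Col3a1 was 1.26 ± 0.63 (limma, adjusted p = 0.997), and that of Col27a1 was -0.32 ± 0.31 (limma, adjusted p = 0.997). In the same interaction 8 of 9 microglia (median -0.74) and 3 of 9 astrocyte markers (median -0.21) passed as lower and 2 of 12 fibroblast (median 0.64), 2 of 10 pericyte and 1 of 9 inhibitory neuron markers passed as higher; their part in that of Col16a1 was not tested.

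High-dose mice were also set side by side across diets. Between Se_HD and HD, 4 genes passed (1 up/3 down), against 8.38% of all genes tested (3.10% higher, 5.28% lower). The lower genes were Col16a1, Col5a3 and Col6a5, and the higher one was Col25a1. Every Se_HD mouse had less Col16a1 than every HD mouse, a log2 fold change of -1.07 ± 0.27 (limma, unadjusted p = 0.000341, adjusted p = 0.0789). Adjusted over all genes, edgeR (adjusted p = 0.00719) and DESeq2 (0.00234) called it and limma did not, while 70 genes of the table (0.327%) passed with limma. Without library 21 the value for Col16a1 was -0.64 (unadjusted p = 0.00099), whereas Col5a3 went from -0.71 to -0.18 (unadjusted p = 0.447) and Col6a5 from -0.60 to -0.30 (unadjusted p = 0.211). Without Se_HD library 6 they were -0.66 (unadjusted p = 0.0802) and -0.47 (unadjusted p = 0.102), and Col5a3 was lost in 5 of the 30 fits that left out 1 library. Of the markers, 8 of 9 for microglia and 7 of 9 for astrocytes passed and were lower in Se_HD than in HD mice, and 8 and 5 without library 21. Their part in the Col16a1 difference was not tested.

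Averaged over both diets, 7 genes differed between the high dose and its controls (5 up/2 down), against 9.09% of all genes tested (5.28% higher, 3.81% lower). They were Col27a1 (0.57 ± 0.15), Col16a1 (0.69 ± 0.19), Lamb2 (0.32 ± 0.089), Col4a5 and Col5a3, which were higher, and Lama3, an alpha chain of epithelial laminin (-0.34 ± 0.14), and Col24a1 (-0.71 ± 0.34), which were lower. The lowest limma adjusted p was 0.122, for Col27a1; DESeq2 called Col27a1, Col16a1 and Lamb2 after adjustment and edgeR called none, and 45 genes of the table (0.210%) passed with limma. The Col16a1 average joins 1.19 between HD and Ctr with a smaller difference on the selenium feed, where the groups overlapped. Without library 21 Col16a1 fell from 0.69 to 0.47 (unadjusted p = 0.000466) and Col27a1 from 0.57 to 0.46 (unadjusted p = 0.00198). Lamb2 was then 0.32 (unadjusted p = 0.00157) and Col4a5 fell from 0.51 to 0.32 (unadjusted p = 0.0395). Col5a3 went from 0.50 to 0.23 (unadjusted p = 0.152) and Col24a1 to -0.67 (unadjusted p = 0.0674), and neither passed. Col5a3 was lost in 10 and Col24a1 in 13 of the 30 fits that left out 1 library, and Lama3 without HD library 15 at -0.27 (unadjusted p = 0.0572) or Se_HD library 6 at -0.26 (unadjusted p = 0.0666). With the choroid plexus and fibroblast scores as covariates Lamb2 was 0.18 (unadjusted p = 0.0296) and Col4a5 0.28 (unadjusted p = 0.151). In this contrast 5 of 12 fibroblast, 9 of 9 microglia, 4 of 9 astrocyte and 1 of 12 choroid plexus markers passed as higher (median log2 fold changes 0.48, 0.45, 0.18 and 1.06), and the part of microglia and astrocytes was not tested.

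At the low dose on the feed without selenium, 5 genes passed (3 up/2 down), against 3.01% of all genes tested (1.67% higher, 1.34% lower). No gene of the table passed after adjustment with limma, and edgeR and DESeq2 called 3 of the 48 each without adjustment and none with it. Col11a1 read 377, 467, 467, 495 and 535 in Ctr and 519, 569.6, 597, 674 and 818 in LD mice, and 4 of 5 LD mice lay above all Ctr mice (0.43 ± 0.16; limma, adjusted p = 0.999). Col6a2, a collagen VI chain, read 87.0, 106, 112, 120.0 and 148 in Ctr and 57.9, 63.5, 85.0, 85.2 and 86.8 in LD mice without overlap (-0.59 ± 0.23; exact permutation p = 0.00794). Col5a1 read 77.1, 108, 116, 156 and 211 in LD mice, a log2 fold change of -0.56 ± 0.21 from Ctr, and LD and HD were compared with the same Ctr mice. The other genes were Col2a1 (0.91 ± 0.40) and Col7a1 (0.52 ± 0.23), at levels of 14.8 and 85.0 (medians of LD mice). Col2a1 was lost in 5 of 15 fits without 1 library and fell to 0.50 (unadjusted p = 0.148) without Ctr library 13. Col7a1 was lost in 4, with its lowest value of 0.37 (unadjusted p = 0.124) without Ctr library 25. Col11a1 was lost without LD library 20, at 0.34 (unadjusted p = 0.0517), and Col5a1 without LD library 26, at -0.38 (unadjusted p = 0.063). Fibroblast markers (2 of 12 passing as lower, median log2 fold change -0.22) and pericyte and smooth muscle markers (2 of 10 passing as lower, median -0.13) also differed at the low dose, with summed normalized counts of 2590 to 6661 in LD and 2423 to 6209 in Ctr mice for fibroblasts and of 2301 to 3316 and 2503 to 2978 for pericytes. With the choroid plexus and fibroblast scores as covariates Col6a2 was -0.30 (unadjusted p = 0.161) and Col7a1 0.47 (unadjusted p = 0.0881). Summed normalized counts in LD and Ctr mice were 172 to 414 and 233 to 636 for erythrocyte markers. They were 1079 to 2603 and 878 to 1396 for thalamus markers and 1888 to 45712 and 2375 to 43676 for choroid plexus markers. The part of pericytes, erythrocytes and neighbouring tissue was not tested.

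On the selenium feed 2 genes passed at the low dose, both higher, against 3.31% of all genes tested (1.80% higher, 1.51% lower). Lama2 read 97.7, 106, 107, 119 and 129 in Se_Ctr and 135, 137, 143, 144 and 155 in Se_LD mice, without overlap. The log2 fold change was 0.36 ± 0.094 (limma, unadjusted p = 0.00109, adjusted p = 1; exact permutation p = 0.00794). Mean Lama2 was lowest in Se_Ctr mice, at 112 normalized counts. It was 138 in Ctr, 118 in LD, 139 in HD, 143 in Se_LD and 133 in Se_HD mice. The same Se_Ctr mice enter the Lama2 differences between Se_HD and Se_Ctr, between Se_Ctr and Ctr and in the low-dose interaction. Col6a5, a low collagen VI-like gene, differed by 0.42 ± 0.19 and was lost in 7 of 15 fits without 1 library (lowest value 0.35, without Se_Ctr library 4). With the set of 6 library numbers as a covariate it had the same value and an unadjusted p of 0.0502, and Lama2 passed. All 12 choroid plexus markers lay below 0 in this comparison (median log2 fold change -0.85, none passing), with sums of 1341 to 55524 in Se_LD and 10796 to 30709 in Se_Ctr mice. Of 9 markers of the thalamus and other neighbouring tissue 3 passed as higher (median 0.50), with sums of 953 to 2713 and 921 to 1533. With the choroid plexus and fibroblast scores as covariates Lama2 was 0.36 (unadjusted p = 0.00153) and Col6a5 0.40 (unadjusted p = 0.0567); the part of neighbouring tissue was not tested. No gene of the table passed after adjustment with limma here either; edgeR called 2 and DESeq2 1 of the 48 without adjustment.

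The low-dose effect differed between the diets for 4 genes (2 up/2 down), against 3.75% of all genes tested (1.87% higher, 1.88% lower). For Lama2, which read 107, 118, 145, 147 and 174 in Ctr and 109, 114, 115, 122 and 127 in LD mice, the low-dose effect was higher on the selenium feed by 0.57 ± 0.18 (limma, unadjusted p = 0.00361, adjusted p = 0.998). Leaving out each of the 30 libraries kept this interaction between 0.49 and 0.66, with every unadjusted p at or below 0.011. Col5a1 also had a higher effect on the selenium feed (0.94 ± 0.42), and Col11a1 (-0.67 ± 0.24) and Col22a1 (-0.75 ± 0.34) had lower ones. Without Se_Ctr library 28 Col5a1 fell to 0.57 (unadjusted p = 0.106); it was lost in 6 and Col22a1 in 7 of the 30 fits that left out 1 library. In this interaction all 12 choroid plexus markers lay below 0 (median -1.44, none passing) and all 5 erythrocyte markers above 0 (median 0.77, 2 passing), and 1 endothelial marker passed as higher and 1 excitatory neuron marker as lower. Pooled over diets, none of the 48 genes passed at the low dose with limma, edgeR or DESeq2, with or without adjustment, against 2.69% of all genes tested (1.52% higher, 1.17% lower).

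The selenium feed alone was compared between Se_Ctr and Ctr mice, where 7 genes passed (1 up/6 down), against 4.00% of all genes tested (1.78% higher, 2.22% lower). No gene of the table passed after adjustment with limma, and edgeR and DESeq2 called 6 of the 48 each without adjustment and none with it. The lower genes were Col1a1, Col3a1, Col5a1, Col6a2, Col24a1 and Lama2, and the higher one was Col11a1. Col1a1 read 77.8, 85.7, 97.2, 112 and 146 in Ctr and 49.3, 50.4, 53.6, 65.4 and 72.2 in Se_Ctr mice, without overlap (-0.81 ± 0.34; exact permutation p = 0.00794). Col3a1 read 40.9, 41.1, 50.7, 81.3 and 90.2 in Ctr mice against the Se_Ctr values above, also without overlap (-0.91 ± 0.44). The limma call of Col3a1 was lost in 16 of the 30 fits that left out 1 library, with unadjusted p-values up to 0.119, and that of Col1a1 without Ctr library 19, at -0.67 (unadjusted p = 0.0704). Without Se_Ctr library 28, 2 of the 48 genes passed in place of 7. Col5a1 then went from -0.76 to -0.39 (unadjusted p = 0.122), Col6a2 from -0.63 to -0.36 (unadjusted p = 0.203), Col24a1 from -1.03 to -0.56 (unadjusted p = 0.231) and Col11a1 from 0.40 to 0.27 (unadjusted p = 0.112). Lama2 was lost in 6 of the 30 fits, and was smallest at -0.21 (unadjusted p = 0.124) without Ctr library 13. Fibroblast markers had a median log2 fold change of -0.45 in this comparison, with 2 of 12 passing and sums of 2463 to 5243 in Se_Ctr and 2423 to 6209 in Ctr mice. All 10 pericyte and smooth muscle markers lay below 0 (median -0.25, 2 passing), with sums of 2441 to 2753 in Se_Ctr and 2503 to 2978 in Ctr mice. All 5 erythrocyte markers did as well (median -0.85, 2 passing), with sums of 159 to 303 and 233 to 636. Of 10 endothelial markers 1 passed as higher and 2 as lower (median -0.056), with sums of 2363 to 2400.4 and 2398 to 2748. The part of pericytes, endothelium and erythrocytes in the differences was not tested. With the marker scores as covariates none of the 48 genes passed. Col1a1 was then at -0.31 (unadjusted p = 0.224), Col3a1 at -0.27 (unadjusted p = 0.398), Col6a2 at -0.21 (unadjusted p = 0.392) and Col11a1 at 0.24 (unadjusted p = 0.163). The other folds stayed nearly as large, with Lama2 at -0.27 (unadjusted p = 0.0559), Col5a1 at -0.61 (unadjusted p = 0.0579) and Col24a1 at -0.93 (unadjusted p = 0.0778). The high-dose and low-dose comparisons on the selenium feed and both interactions share its Se_Ctr mice. The comparisons of HD and LD with Ctr and both interactions share its Ctr mice.

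Between Se_LD and LD mice 1 gene passed, Lama2 (0.28 ± 0.13), against 2.86% of all genes tested (1.36% higher, 1.50% lower). Over all doses, 4 genes differed between the feeds (2 up/2 down), against 6.62% of all genes tested (2.82% higher, 3.80% lower). Col25a1 was higher with selenium by 0.21 ± 0.067 (limma, unadjusted p = 0.00293, adjusted p = 0.675), and its means were 735 ± 137, 719.7 ± 83.4 and 676 ± 48 (SD, n = 5) in Ctr, LD and HD and 825 ± 74.9, 814 ± 154 and 835 ± 77.0 in the corresponding selenium groups. Lamb1 was also higher (0.14 ± 0.065), and Col9a2 (-0.52 ± 0.18) and Col16a1 (-0.39 ± 0.15) were lower. Lamb1 was lost in 14 of the 30 fits that left out 1 library, and Col16a1 was -0.25 (unadjusted p = 0.0156) without HD library 21. Mean Col16a1 was 162 and 152 normalized counts in Ctr and Se_Ctr, 161 and 154 in LD and Se_LD and 464 and 173 in HD and Se_HD mice. Of the markers, 4 of 9 for astrocytes, 4 of 9 for microglia, 2 of 10 for endothelium and 2 of 5 for erythrocytes passed as lower with selenium (medians -0.18, -0.21, -0.048 and -0.41), and their part was not tested. The Lama2 difference between Se_LD and LD mice was lost in 6 of 30, with values of 0.25 to 0.28. The Col25a1 value held without any 1 of the 30 libraries, between 0.19 and 0.25 with every unadjusted p at or below 0.00685.

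A test for any difference over the 6 groups passed for 6 genes, against 6.91% of all genes. They were Col16a1, Lamb2, Col27a1, Col3a1, Col1a2 and Col4a5. Col4a5 no longer passed in 20 of the 30 fits that left out 1 library, Col1a2 in 4, Col3a1 in 1 (without Se_LD library 5) and Col27a1 in 1 (without HD library 21). Col16a1 passed after adjustment (limma F test, adjusted p = 0.0499; edgeR 0.000359; DESeq2 1.31e-06), as did 95 genes of the table (0.444%). The unadjusted limma F test p of Col16a1 was 0.000217 with all libraries and 0.0005 without HD library 21. It was highest, at 0.00239, without HD library 9. The adjusted p of 0.0499 is that of all 30 libraries. DESeq2 also called Lamb2 (0.0291) and Col5a3 (0.00846) after adjustment. For Col5a3, HD library 21 had 277 normalized counts and the other HD mice 28.2 to 62.7. In the same F test 8 of 9 microglia (7 after limma adjustment), 6 of 9 astrocyte, 5 of 12 fibroblast, 2 of 10 pericyte, 2 of 9 inhibitory neuron and 1 of 5 erythrocyte markers passed without adjustment.

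Several of these genes followed cell-type markers from mouse to mouse. Genes were counted as following a score where the adjusted p of r was below 0.05. Deviations of log2 levels from the group mean were correlated over the 30 mice with the scores of 6 marker lists, 288 relations adjusted together with permutation p-values. These relations were chosen after the data were seen. Scores of the microglia, oligodendrocyte, neuron and erythrocyte lists were not correlated with the genes. The choroid plexus score was followed by 8 genes, all positively. Col8a1 and Col8a2, which encode the short-chain network collagen VIII, had r = 0.96, rho = 0.95 and r = 0.96, rho = 0.98, each with an adjusted permutation p of 0.00036. Col8a1 ranged from 10.9 to 282 and Col8a2 from 6.48 to 199.9 normalized counts over the mice. The basement membrane chains Col4a3 (r = 0.93, rho = 0.93) and Col4a4 (r = 0.81, rho = 0.79), Col9a3 (r = 0.89, rho = 0.89), Col18a1, which bears endostatin (r = 0.83, rho = 0.83), and Lama5 (r = 0.79, rho = 0.83) came next, and Col14a1 was the weakest (r = 0.48, rho = 0.48) and passed by r (adjusted permutation p = 0.0178) and not by rho (0.0723). Without the 2 mice farthest from the median score, r was 0.96 for Col8a1, 0.90 for Col4a3 and 0.87 for Col9a3. None of the 8 but Col9a3 passed in any comparison between groups.

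**Figure D4:**
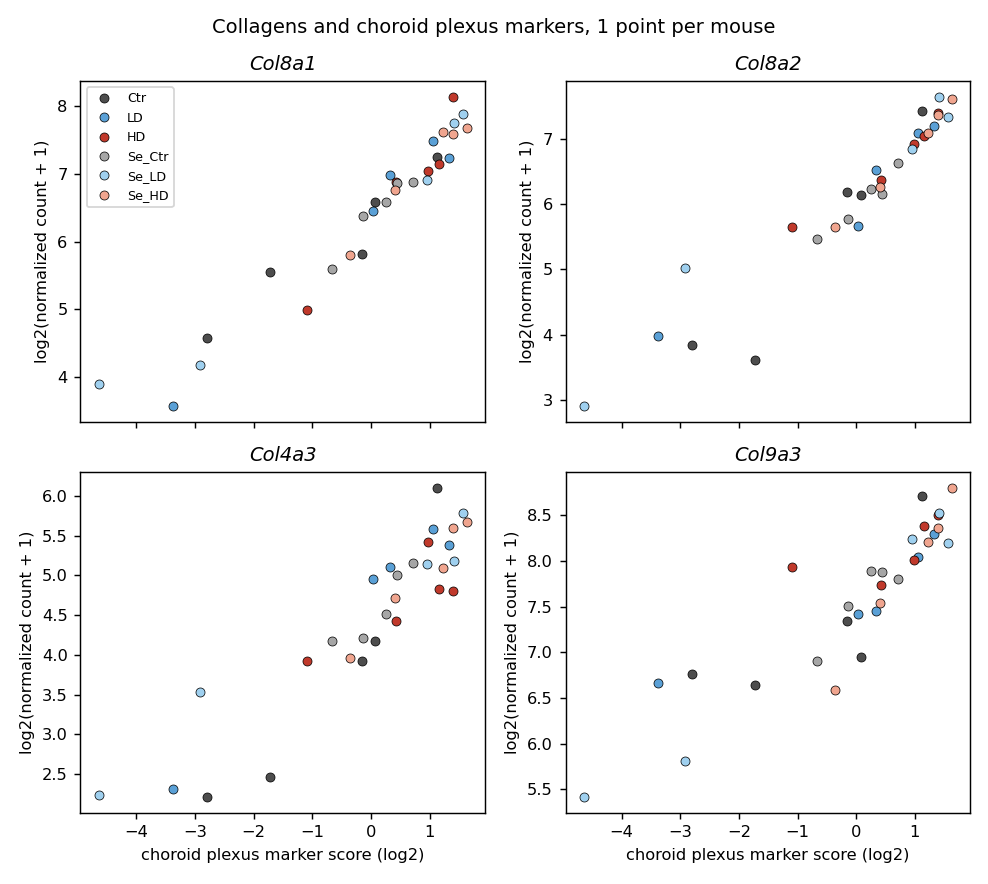
Log2(normalized count + 1) of Col8a1, Col8a2, Col4a3 and Col9a3 against the choroid plexus marker score, 1 point per mouse (30 mice) coloured by group. All 4 genes increase along the score, and mice of each group are spread along it.

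The fibroblast score was followed by 12 genes, again all positively. The strongest were Col1a2 (r = 0.89, rho = 0.90), the collagen VI-like Col6a6 (r = 0.80, rho = 0.82), Col3a1 (r = 0.78, rho = 0.85), Lama1, the alpha chain of pial laminin (r = 0.77, rho = 0.76), Col13a1 (r = 0.74, rho = 0.69), Col1a1 (r = 0.73, rho = 0.82), Lama4, an alpha chain of vessel walls (r = 0.73, rho = 0.75), and Lamb2 (r = 0.71, rho = 0.69). For Col1a2 r was 0.88 without the 2 farthest mice, and for Lamb2 0.66. The score of pericyte and smooth muscle markers was followed by 9 genes, 8 of them by rho as well, among them Col1a1 (r = 0.81) and Col1a2 (r = 0.80). The endothelial and the thalamus scores were followed by none. With the astrocyte score Col16a1 (r = 0.82, rho = 0.56) and Col5a2 (r = 0.67, rho = 0.51) passed by r (adjusted permutation p = 0.0419 and 0.0191) and not by rho (0.0979 and 0.0576). For Col16a1 r was 0.51 without the 2 farthest mice. HD libraries 21 and 9, with the most Col16a1, had the highest astrocyte scores (1.01 and 0.59). They also had the highest microglia scores (1.35 and 1.21), and the relation of Col16a1 to that score was not tested. Col16a1 had r = 0.16 with the fibroblast and r = -0.06 with the choroid plexus score. Library numbers run in 5 sets of 6 with 1 mouse of each group, and with the set means also removed r was 0.96 for Col8a1 with the choroid plexus score, 0.91 for Col1a2 with the fibroblast score and 0.79 for Col16a1 with the astrocyte score.

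**Figure D5:**
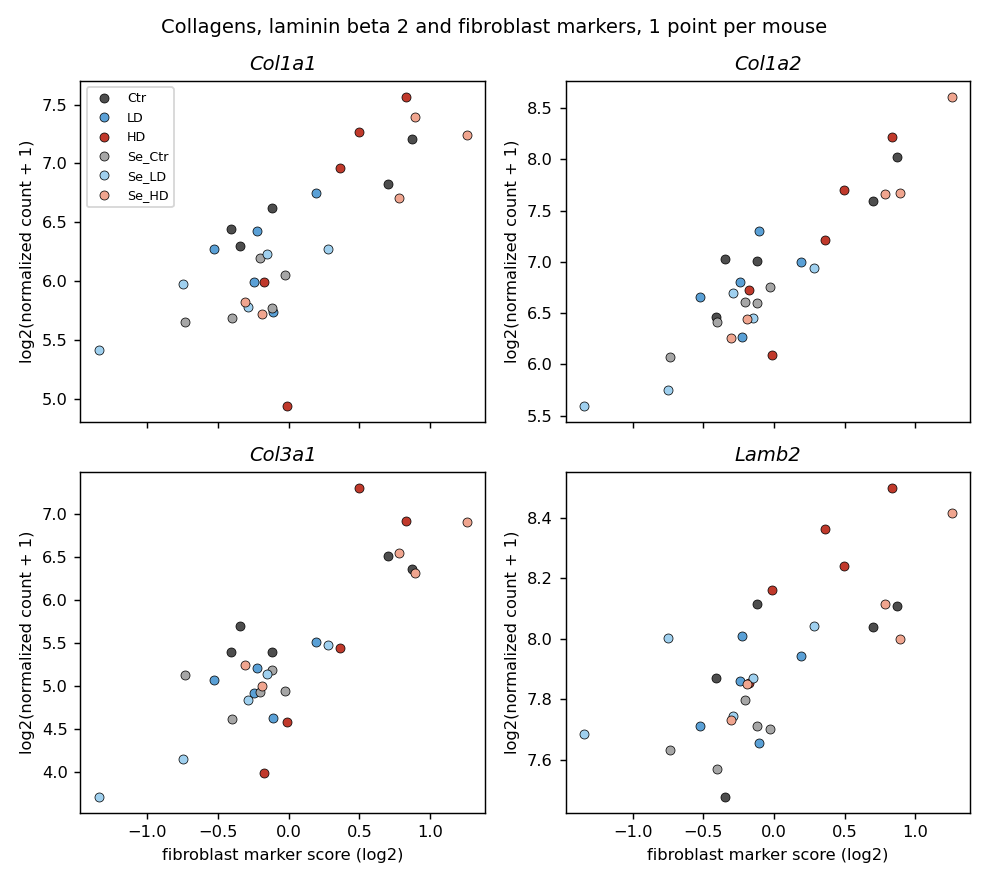
Log2(normalized count + 1) of Col1a1, Col1a2, Col3a1 and Lamb2 against the fibroblast marker score, 1 point per mouse (30 mice) coloured by group. The 4 genes increase along the score, and the 3 Se_HD mice with the highest scores carry the highest Col1a2 and Col3a1 of their group.

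Chains of 1 trimer, and Col1a1 with Col3a1 of the separate collagens I and III, were then compared over the same deviations, in 14 pairs adjusted together. Col8a1 and Col8a2 were closest (r = 0.90, rho = 0.92, adjusted permutation p = 7e-05 and 7e-05). Col1a1 followed Col3a1 (r = 0.81, rho = 0.80, adjusted permutation p = 0.00049 and 0.000336) and Col1a2 (r = 0.78, rho = 0.74, adjusted permutation p = 0.00042 and 0.000863), and Col6a1 followed Col6a2 (r = 0.75, rho = 0.81, adjusted permutation p = 7e-05 and 7e-05). Both pairs of collagen IV genes that share a start region passed, Col4a3 with Col4a4 (r = 0.80, rho = 0.75, adjusted permutation p = 0.00021 and 0.000336) and Col4a1 with Col4a2 (r = 0.75, rho = 0.74, adjusted permutation p = 0.000187 and 0.000336). Of the other pairs, 5 did not pass. Col5a1 with Col5a2 had an adjusted permutation p of 0.0525 for r, and Col6a2 and Col6a3 had r = -0.20, Col11a1 and Col11a2 r = -0.27, Lamb1 and Lamc1 r = 0.18 and Lamb2 and Lamc1 r = 0.15, with adjusted permutation p-values of 0.34, 0.29, 0.49 and 0.52. Lama5 and Lamb2 had r = 0.46, rho = 0.53, adjusted permutation p = 0.0209 and 0.0171. Lama2 with Lamb1 and Lama4 with Lamc1 passed by r (adjusted permutation p = 0.021 and 0.037) and not by rho (0.12 and 0.062). Col4a3, Col4a4, Col8a1 and Col8a2 each followed the choroid plexus score, and Col1a1, Col1a2 and Col3a1 the fibroblast score, as given above. The part of these scores or of shared start regions in the pair correlations was not tested.

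The start regions of these collagen IV pairs are shown because the genes run away from each other there, as read from NCBIM37 on the plus strand. Col4a1 (minus strand) and Col4a2 (plus strand) overlap by the 22 bases chr8:11312805-11312826, and Col4a4 (minus strand) and Col4a3 (plus strand) are separated by the 71 bases chr1:82583425-82583495. Capitals mark GGGCGG, a GC box, and the second stretch holds none of the letters searched.
Col4a1 and Col4a2: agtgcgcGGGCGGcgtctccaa
Col4a4 and Col4a3: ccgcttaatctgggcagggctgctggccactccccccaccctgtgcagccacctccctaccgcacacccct

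In the RefSeq promoters of build GRCm38.p6, which run from 250 bases before to 50 after each start, 34 of the 48 genes had an entry. A GC box (GGGCGG, searched on both strands) was in 67.6% of these 34, beside 35.9% of all 27025 promoters; the median GC content was 61.3% in these 34 and 52.7% in all. The box read by the factor NF-Y (CCAAT, both strands) was in 32.4% beside 37.9%, among them Col4a1, Col4a2, Col16a1 and Col25a1. The TATA box (TATAAA, both strands) was in 8.82% beside 14.2%, namely Col11a2, Col13a1 and Col3a1. A match is a description of the letters only.

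Genes that act on collagens and laminins were followed in 4 lists. At an unadjusted limma p below 0.05 between HD and Ctr, where 8.34% of all genes passed (5.08% higher, 3.26% lower), 4 of 26 genes for collagen processing and crosslinking passed as higher and none as lower (20 of 26 lay above 0, median log2 fold change 0.15), the lowest p being that of Plod1, a lysyl hydroxylase (0.40 ± 0.14; limma, adjusted p = 0.371), which was 0.30 (limma, adjusted p = 0.76) without library 21. Of 20 receptors for collagen and laminin, 4 passed as higher and none as lower (17 above 0, median 0.19). Sdc4, a syndecan of the cell surface, read 811, 881, 924, 947 and 1093 in Ctr, 1053, 1134, 1304, 1446 and 2165 in HD and 769.9, 783, 792, 941 and 971 in Se_HD mice, and its log2 fold change from HD to Se_HD was -0.70 (limma, adjusted p = 0.0401), and -0.53 (limma, adjusted p = 0.255) without library 21. Of 20 basement membrane and matrix partners, 2 passed as higher and 2 as lower (median 0.12). Among them Sparc, which encodes a collagen-binding matrix protein, read 1916, 1961, 2096, 2119 and 2627 in Ctr, 2544, 3345, 3393, 3944 and 4793 in HD and 2217, 2228, 2328, 2393 and 2499 in Se_HD mice. Its log2 fold change from Ctr to HD was 0.73 ± 0.14 (limma, adjusted p = 0.0454) and that from HD to Se_HD was -0.60 (limma, adjusted p = 0.0187). Without library 21 these were 0.62 (limma, adjusted p = 0.099) and -0.49 (limma, adjusted p = 0.122). Of 20 matrix proteases and inhibitors, 1 passed as higher, the inhibitor Timp1 (2.49 ± 0.91), which read 0, 2.25, 3.40, 5.11 and 5.67 in Ctr and 4.02, 4.36, 10.8, 19.2 and 503 in HD mice, the highest again in library 21, and fell to 1.32 (limma, adjusted p = 0.741) without it. Without library 21, 6.37% of all genes passed between HD and Ctr, and 2 of 26, 3 of 20, 2 higher and 2 lower of 20, and 1 of 19 genes of these lists. The medians of the lists were then 0.051 for processing, 0.055 for receptors, 0.038 for partners and 0.085 for proteases and inhibitors, where that of the last had been 0.15 with all libraries.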

How the data were processed

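Total RNA of the hippocampus was sequenced as single-end reads from stranded mRNA libraries, 1 library per mouse. The authors trimmed reads with Trim Galore 0.4.2, aligned them with HISAT2 to NCBIM37, counted them per gene with featureCounts and deposited a table of DESeq2-normalized counts, from which genes with few reads had been removed. These deposited values are a signal scale of gene counts divided by size factors. Divided by the smallest positive value of their library, they gave whole reads for 100% of entries (tolerance 0.01). Size factors recomputed from these reads as medians of ratios differed from the inverse of that smallest value by at most 6.16e-10 (relative difference). Symbols came from GENCODE M1 (21326 of 21412 identifiers). Whether counting used strand is not given in the sources used here, and reads in gene overlaps cannot then be assigned.

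The main test was limma 3.58.1 with trend on log2(normalized count + 1), genes with a sum of at least 10 in the fit. HD and LD were fitted with Ctr, Se_HD and Se_LD with Se_Ctr, and the contrasts between or over feeds and the F test on all 30 libraries. P-values were adjusted by Benjamini-Hochberg over all genes tested; fold changes are on the log2(value + 1) scale, which understates those of low genes. Single genes were also tested by two-sided exact permutation of 5 against 5 mice, correlations by 100000 permutations (smallest p 1e-05). edgeR 4.0.16 and DESeq2 1.42.0 were run on the recovered reads as alternatives, with other pseudocounts, filters, fits and marker scores. The fit was tested on simulated data. Genes named were those with an unadjusted p below 0.05 in any comparison, the 5 highest in mean count and per kb, the highest of each class, and in each partner list those with an adjusted p below 0.05 or otherwise the lowest p in HD against Ctr; genes following the marker scores were named after their values were seen. The members and lists were chosen with earlier results of these data known. R 4.3.3, Python 3.11.15.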

Additional observations from a re-analysis of the deposited data

Results flagged for a closer look

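In 12 of the 168 groups of 5 mice checked (28 named genes in 6 groups), the highest or lowest mouse was separated from the next by more than 0.71 of the group's range, where chance gives about 8.4. HD library 21 was the separate mouse for 4 genes, all high: Col16a1 (1182 normalized counts, ratio 0.737), Col27a1 (284, ratio 0.737), Col5a3 (277, ratio 0.861) and Col6a5 (107, ratio 0.896). LD library 20 was high for both chains of the common collagen IV, Col4a1 (839.6, ratio 0.80) and Col4a2 (1060, ratio 0.717). The other high mice were Ctr library 7 for Col9a3 (419, ratio 0.805), Se_Ctr library 28 for Col11a1 (872, ratio 0.833), Se_Ctr library 10 for Col7a1 (90.2, ratio 0.781) and HD library 3 for Col22a1 (68.3, ratio 0.751). The low mice were Se_HD library 12 for Col4a2 (594, ratio 0.784) and Se_LD library 17 for Lamc1 (243, ratio 0.904).

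The effect of a dose differed between the feeds by the test of the difference for 5 genes, each on the log2 scale and as the selenium feed minus the feed without it. These were Col16a1 at the high dose (-1.01), and Lama2 (0.572), Col5a1 (0.937), Col11a1 (-0.665) and Col22a1 (-0.753) at the low dose. They are 1 of 48 genes at the high dose, where 4.77% of all genes passed, and 4 of 48 at the low dose, where 3.75% did. The limma p-values of these differences were unadjusted; adjusted over all genes they were 0.91 for Col16a1 and 0.998 for the others.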

How the results depend on the processing

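The number of the 48 genes passing at an unadjusted p below 0.05 moved by over 1.5 times under some settings. HD against Ctr went from 8 to 5 without the limma trend and to 5 with the marker scores as covariates. LD against Ctr went from 5 to 3 with edgeR, DESeq2 or the scores. Se_HD against Se_Ctr went from 7 to 4 with all 30 libraries in 1 fit. Se_LD against Se_Ctr went from 2 to 1 with the set of 6 library numbers as a covariate, with all 30 libraries or with DESeq2, and to 6 with the scores. Se_Ctr against Ctr went from 7 to 4 without the trend and to 0 with the scores. Se_LD against LD went from 1 to 2 with DESeq2, the high dose over both diets from 7 to 11 with edgeR, and the low dose over both diets from 0 to 1 with a pseudocount of 10 or the scores. The high-dose interaction went from 1 to 2 with edgeR or DESeq2 and to 3 with the scores, and the F test from 6 to 3 without the trend, 10 with edgeR and 12 with DESeq2.

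Leaving out 1 library at a time gave 5 to 11 genes for HD, 2 to 7 for LD, 4 to 9 for Se_HD and 1 to 4 for Se_LD, each against its own controls. It gave 2 to 8 for Se_Ctr against Ctr (2 without Se_Ctr library 28), 0 to 4 for Se_LD against LD, 2 to 6 for Se_HD against HD (2 without HD library 21 or Se_HD library 6), 5 to 11 for the high dose and 0 to 2 for the low dose over both diets, 3 to 7 for selenium, 1 to 5 and 2 to 5 for the high-dose and low-dose interactions and 3 to 9 for the F test.

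Of 56 single calls, 30 held with the scores as covariates, 40 without the trend, 47 with DESeq2, 50 with edgeR, 50 with the set of 6 library numbers as a covariate and 52 to 56 under other pseudocounts and filters. The 6 calls lost with that covariate were Col7a1 (LD), Col22a1 (Se_HD) and Col6a5 (Se_LD) against their controls, Col3a1 between Se_Ctr and Ctr, Col5a3 at the high dose over both diets and Col4a5 in the F test, with unadjusted p-values of 0.0501 to 0.057. Of the 22 calls at 1 dose within a feed, 16 held with all 30 libraries in 1 fit. Col1a2 in Se_HD against Se_Ctr reversed with the scores (-0.067; unadjusted p = 0.613); the cause was not tested. The labels give no replicate number that groups share and state no batch, so the sets of 6 library numbers were used only as that covariate. Depth limits the lowest genes: Col2a1 and Col24a1 had values down to 1.70 and 2.69 normalized counts.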
